A study of Mus musculus with 4 samples.

Results

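The mitochondrial genome of the mouse is a small circular chromosome with its own genes, and its 37 genes were examined in bulk RNA-seq of brain microglia. They were found by name among the 49993 genes of each deposited table (ND1 to ND6, ND4L, COX1 to COX3, ATP6, ATP8, CYTB, mt-Rnr1, mt-Rnr2 and the Trn genes), and all 37 had a row. Of these, 13 are mRNAs, 2 are rRNAs and 22 are tRNAs. The cells were microglia, brain macrophages that carry CD11b, sorted on magnetic beads at an age of 10 months. Every animal carried the APP/PS1 transgenes, a model of the amyloid build-up of Alzheimer's disease, and no group without them was included. Mice with intact asrij (APP/PS1+ asrij+/+, AD) gave 2 libraries and mice with asrij deleted in the whole body (APP/PS1+ asrij-/-, AD/KO) gave 2. Asrij is the gene Ociad1, whose protein is found at mitochondria and endosomes. The labels do not say whether a library came from 1 mouse or from pooled mice, and the p-values measure only the spread between these libraries.

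Both strands of mitochondrial DNA are transcribed as long precursors, and tRNAs that lie between the other genes mark the places where the precursors are cut. The 13 mRNAs encode membrane subunits of the respiratory chain and of ATP synthase, and the rRNAs and tRNAs serve to translate them inside the organelle. All other subunits of these complexes come from the nucleus. ND6 and 8 of the tRNAs lie on one strand and the remaining genes on the other.

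The libraries held from 13102622 to 19810076 counts. Ociad1 (gene ID 68095) had 691 and 1032 counts in AD and 746 and 592 in AD/KO. In CPM (counts scaled to a common library size by TMM) it stood at 50.15 and 63.43 in AD and at 38.89 and 32.13 in AD/KO. Both AD/KO libraries thus lay below both AD libraries, as in 21.7% of all genes tested, and the AD/KO mean was 62.5% of the AD mean. The edgeR quasi-likelihood test did not call this difference (log2 fold change −0.68, SE 0.29, adjusted p = 0.680), and the transcript was not lost. AD and AD/KO therefore name labels, and each direction compares libraries by label. The CPM of 10 microglial markers summed to 17382 and 11639 in AD and to 17481 and 5117 in AD/KO. AD/KO replicate 2 also had the highest sums of neuron, astrocyte and oligodendrocyte markers, and AD replicate 1 the lowest. AD replicate 2 stood apart by 4505 CPM of neutrophil markers, against 323 to 520 CPM in the other libraries, and by 1391 counts of Xist, against 3 to 15. For cell type markers in bulk RNA, more cells of a type and more RNA per cell cannot be told apart. Xist is on none of the marker lists, and its level sets the AD libraries apart from each other. The part of this difference within AD in the other values was not tested.

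Mitochondrial genes have copies in nuclear DNA, and reads that match both places cannot be assigned to one of them. For this reason each gene was first compared with the nuclear transcripts of GENCODE M21 (GRCm38, the assembly that mm10 also names). On chromosome 1, 7 pseudogenes between 24611535 and 24616197 lie in a run of 4663 bases. In order they copy ND4 (876 of 1378 bases), ND4L, ND3, COX3, ATP6, COX2 and the last 483 bases of COX1. They matched their mitochondrial genes over the aligned bases without a mismatch, except for 1 mismatch each in the copies of ND3 and COX1. A gap of 233 bases between the copies of ATP6 and COX2 has no annotated transcript, and ATP8 lies at that place in the mitochondrial genome. To show how alike the copies are, the first 120 of the 345 aligned bases of ND3 and its chromosome 1 copy Gm28438 are given 5′ to 3′. The 1 mismatch of the whole alignment is in capitals.
ND3: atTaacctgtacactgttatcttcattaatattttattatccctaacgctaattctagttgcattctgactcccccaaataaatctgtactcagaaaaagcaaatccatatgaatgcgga
Gm28438: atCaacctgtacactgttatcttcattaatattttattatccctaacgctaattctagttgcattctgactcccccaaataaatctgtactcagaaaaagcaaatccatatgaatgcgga
As a contrast, the first 120 bases of ND6 are set beside those of its closest nuclear transcript, the pseudogene Gm11408 on chromosome 4, which is 93.6% identical over 519 bases. The 4 mismatches in this stretch are in capitals.
ND6: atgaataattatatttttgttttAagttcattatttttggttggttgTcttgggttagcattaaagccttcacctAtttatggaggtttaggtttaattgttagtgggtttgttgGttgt
Gm11408: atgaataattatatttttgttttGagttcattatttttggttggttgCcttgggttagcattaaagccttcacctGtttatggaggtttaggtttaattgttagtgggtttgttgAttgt

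The 5 mRNAs copied almost whole were counted far less per length than the other mRNAs, except ATP8. In ND3, ND4L, COX2, COX3 and ATP6, from 98.0% to 100% of all 50-base windows were found in a nuclear transcript, and the levels ran from 2.69 to 30.8 CPM per kilobase over the 4 libraries. In ND1, ND2, ND5, ND6 and CYTB at most 8.19% of windows were found there, and the levels ran from 570 to 5644 CPM per kilobase. Library by library, the median of the second set was 154, 179, 187 and 166 times that of the first (AD replicates 1 and 2, then AD/KO replicates 1 and 2). Of the 2 mRNAs copied in part, ND4 (62.2% of windows) ran from 485 to 2124 CPM per kilobase. COX1 (51.1% of windows) had the highest mean level of all mRNAs, with 2082 to 10150 CPM per kilobase. ATP8 was the lowest mRNA, at 1.07 to 5.32 CPM per kilobase, although none of its windows was found in an annotated nuclear transcript. The sources used here do not state how the counting treated reads that match several places. The levels of the copied genes are therefore uncertain and do not stand for the amount of their mRNA, and the part that dropped reads play in them was not tested. For 2 of the copies, counts were examined directly. Gm10925, the copy of ATP6, had 45, 232, 195 and 339 counts, beside 49, 156, 207 and 319 for ATP6 itself. Gm10222, the copy of ND4L, had 19, 30, 64 and 78 counts, beside 11, 32, 64 and 62 for ND4L.

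**Figure D1:**
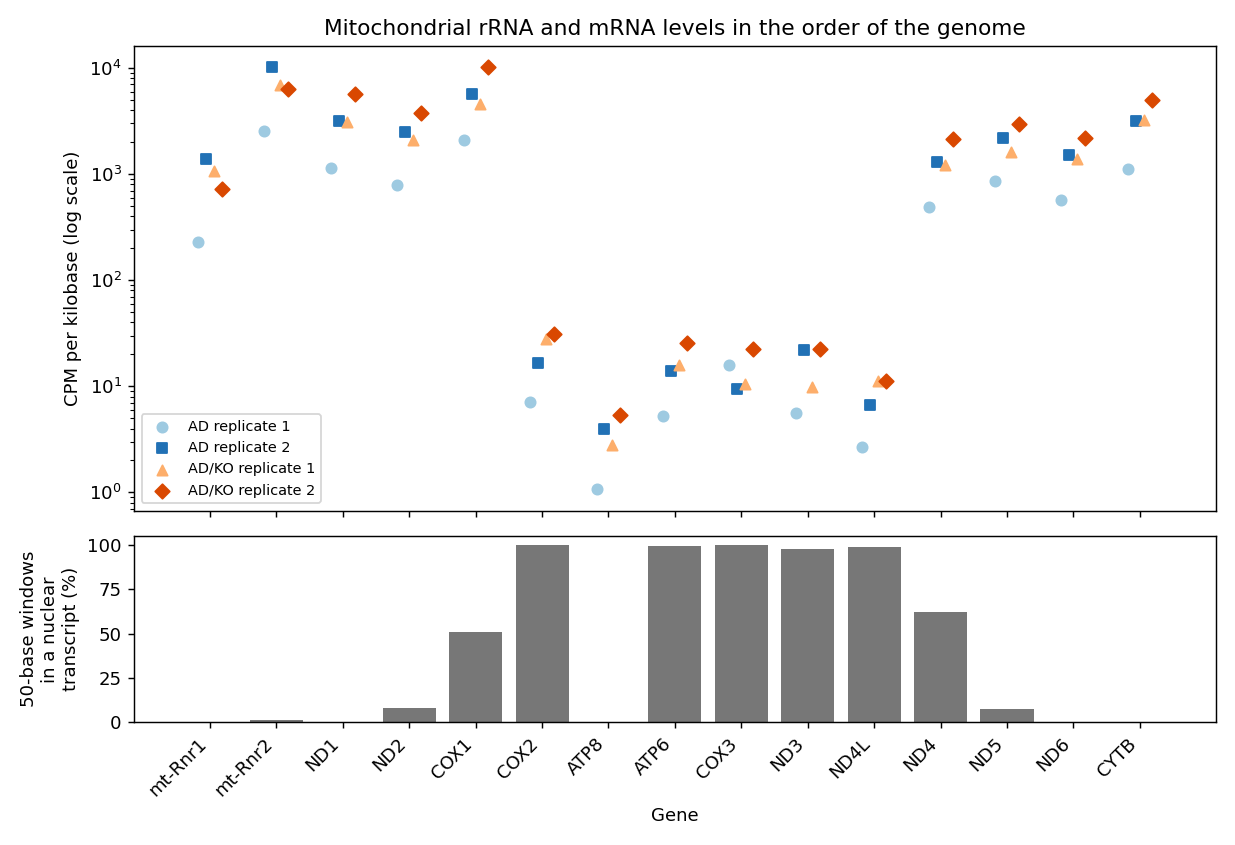
The upper panel plots CPM per kilobase of gene (log axis) for the 2 rRNAs and 13 mRNAs in the order of the mitochondrial genome, with 1 point per library. The lower panel gives the percent of each gene's 50-base windows found exactly in a nuclear transcript. COX2, ATP6, COX3, ND3 and ND4L, with 98.0% or more of their windows copied, lie between 2.69 and 30.8 CPM per kilobase, ATP8 lies lower still, and ND1, ND2, ND5, ND6 and CYTB lie at 570 or more.

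The 37 genes took a variable share of each library. Their counts made up 1.39% and 4.32% of the AD libraries (mean 2.86 ± 2.07%, SD, n = 2) and 3.31% and 4.77% of the AD/KO libraries (mean 4.04 ± 1.03%, SD, n = 2). AD replicate 1 was the lowest library and AD/KO replicate 2 the highest, and AD replicate 2 lay between the AD/KO libraries. The mRNAs alone held 0.943% and 2.53% of counts in AD and 2.12% and 3.74% in AD/KO, with the same order of libraries. The rRNAs held 0.443% and 1.78% in AD and 1.18% and 1.01% in AD/KO, so that their highest share was in AD replicate 2. The tRNAs held 0.00422% and 0.0125% in AD and 0.00835% and 0.0143% in AD/KO. The groups overlapped in all 3 classes and in the total. An exact two-sided permutation test over libraries gave p = 0.667 for the total, the mRNAs and the tRNAs and p = 1.0 for the rRNAs, and with 2 libraries against 2 it cannot go below 0.333. These 4 comparisons are 1 family, and adjustment cannot lower these values. Within AD the mRNA share differed 2.68-fold between replicates, so that the spread inside a group was as large as the difference between groups. Counting error was small beside this spread. The total in AD replicate 1, the library with the fewest counts, had a 95% Wilson interval of 1.385% to 1.397%. Reads carry no molecular identifiers, and the intervals cover counting error only. Without AD replicate 1, the difference in the total (AD/KO minus AD) went from 1.18 to −0.286 percentage points.

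**Figure D2:**
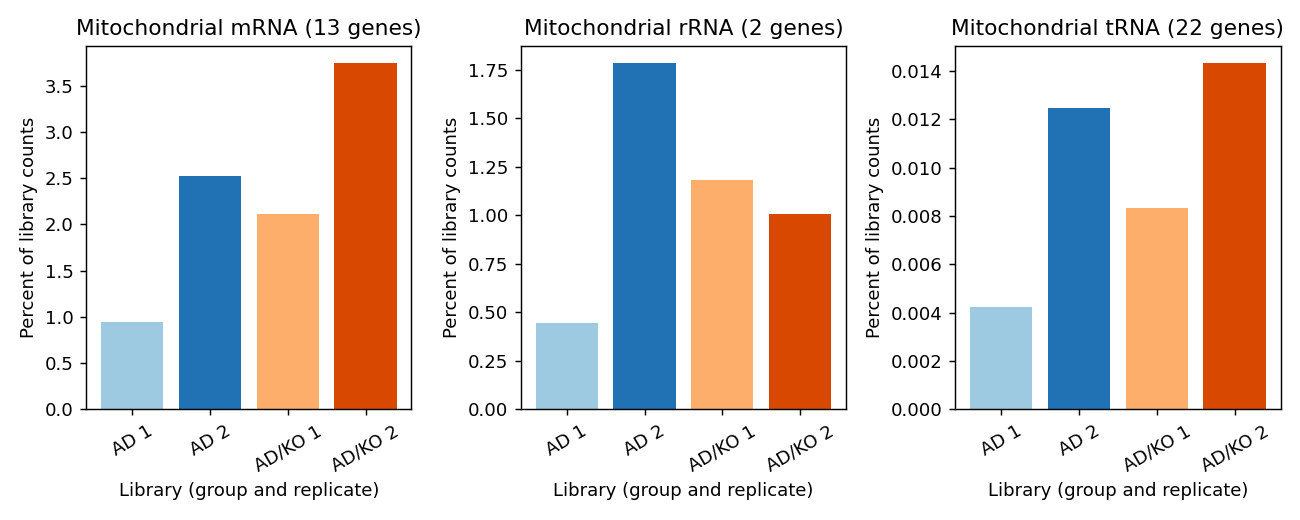
Each panel shows the percent of all counts of a library taken by 1 class of mitochondrial gene, as a bar per library from 0, with its own axis. In the mRNA panel AD/KO replicate 2 (3.74%) is highest and AD replicate 1 (0.943%) lowest, while in the rRNA panel AD replicate 2 (1.78%) is highest.

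The comparison of AD/KO with AD asked whether single mitochondrial genes differ between the labels. All 13 mRNAs had a log2 fold change above 0, from 0.22 for ND3 to 1.32 for COX2, with a median of 0.90, while the median of all 21439 genes tested was −0.05. Of the 37 genes, 31 passed the filter on low counts and 6 tRNAs did not. By edgeR's quasi-likelihood test, 0 of the 31 had a Benjamini-Hochberg adjusted p under 0.05, as did 0% of all genes tested. At an unadjusted p under 0.05 there were 2 of the 31, COX2 and TrnM, against 5% of all genes, and DESeq2 called 0 of the 29 to which it gave an adjusted p, against 0.462% of all genes. With the replicate number as a block, which the labels tie to no litter or day, 4 were called (COX2, ATP6, TrnP and TrnM, each higher in AD/KO), where 20.2% of all genes were called and 13.4% in that direction. Both AD/KO libraries lay above both AD libraries in 7 of the 31 (ND4L, CYTB, COX2, ATP6, TrnA, TrnM and TrnW), a share close to the 20.3% of all genes tested that did so. Without TMM, or with counts outside the mitochondrial genes as library size, 6 of the 31 did so. Of the genes named here and with the block, ND4L, COX2 and ATP6 are copied almost whole in nuclear transcripts, and their levels are uncertain. In 0 of the 31 did both AD/KO libraries lie below both AD libraries, where 21.7% of all genes did. Most mRNAs also shared their lowest and highest library. AD replicate 1 had the lowest level and AD/KO replicate 2 the highest of 12 of the 13 mRNAs, with COX3 as the exception. The share of all genes with these extremes was not counted. The summed nuclear subunits of the same complexes had them too, as did the neuron, astrocyte and oligodendrocyte marker sums. The median of the 13 mRNAs was 0.34 without AD replicate 1, 1.94 without AD replicate 2 and 0.43 without AD/KO replicate 2.

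**Figure D3:**
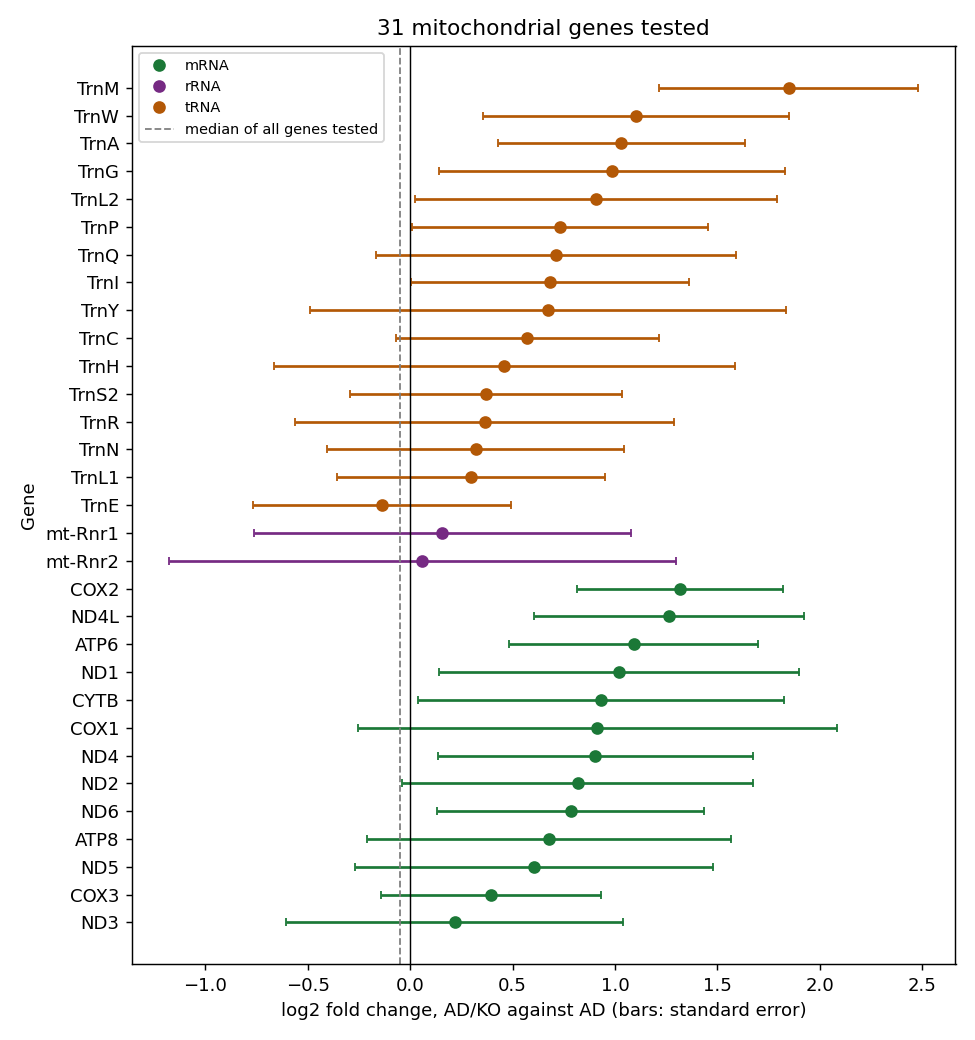
Points are log2 fold changes of AD/KO against AD for the 31 genes tested, with bars of 1 standard error, and the dashed line is the median of all genes tested (−0.05). The mRNAs run from 0.22 to 1.32, both rRNAs lie near 0 and TrnE is the one gene below 0, at −0.14.

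Complex I, which takes electrons from NADH, holds 7 subunits from mitochondrial DNA. ND1 (gene ID 17716, chromosome M, 2751 to 3707) stood at 1096 and 3051 CPM in AD and at 2995 and 5401 CPM in AD/KO. AD replicate 2 and AD/KO replicate 1 were alike, and the groups overlapped (log2 fold change 1.02, SE 0.88). ND2 (gene ID 17717, 3914 to 4951) gave 825 and 2613 CPM in AD and 2180 and 3877 CPM in AD/KO (0.82, SE 0.86). For ND4 (gene ID 17719, 10167 to 11544), which forms part of the proton-pumping arm with ND2 and ND5, the values were 668 and 1805 CPM in AD and 1695 and 2927 CPM in AD/KO (0.90, SE 0.77). ND5 (gene ID 17721, 11742 to 13565), the largest of these subunits, was at 1577 and 3959 CPM in AD and at 2976 and 5450 CPM in AD/KO (0.61, SE 0.87). In each of these 4 genes AD replicate 2 lay between the AD/KO libraries. ND6 (gene ID 17722, 13552 to 14070), the only mRNA on its strand, was at 295 and 784 CPM in AD and at 723 and 1136 CPM in AD/KO, again with overlap (0.78, SE 0.65). It shares 14 bases with the end of ND5 on the other strand. The copied genes ND3 (gene ID 17718, 9459 to 9806) and ND4L (gene ID 17720, 9877 to 10173) rest on few counts and are uncertain, since both have near-exact copies on chromosome 1, as the sequence pair of ND3 shows. ND3 had 27 and 125 counts in AD and 66 and 144 in AD/KO, with overlap and a log2 fold change of 0.22 (SE 0.82). ND4L had 11 and 32 counts in AD and 64 and 62 in AD/KO (1.27, SE 0.66), without overlap between the groups. Without AD replicate 1 or AD/KO replicate 2, the log2 fold change of ND3 was −0.47 or −0.48. None of the 7 passed the threshold (adjusted p from 0.680 to 0.918, edgeR quasi-likelihood with Benjamini-Hochberg adjustment).

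Cytochrome b, encoded by CYTB (gene ID 17711, 14145 to 15288), is the one subunit of complex III from mitochondrial DNA and passes electrons from coenzyme Q. CYTB stood at 1270 and 3651 CPM in AD and at 3679 and 5709 CPM in AD/KO. In CPM the groups did not overlap, but AD replicate 2 and AD/KO replicate 1 differed by far less than the replicates of either group. As a percent of library totals, without TMM, these libraries held 0.373% and 0.366%, so that the groups overlapped. The means were 2461 ± 1684 and 4694 ± 1436 CPM (SD, n = 2 each), and the log2 fold change was 0.93 (SE 0.89, adjusted p = 0.719 by the edgeR test).

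Cytochrome c oxidase, or complex IV, reduces oxygen and holds COX1, COX2 and COX3 at its core. COX1 (gene ID 17708, 5328 to 6872), the subunit with the site of oxygen reduction, was the most counted mRNA in every library. Its level was 3217 and 8830 CPM in AD and 7022 and 15682 CPM in AD/KO, so that AD replicate 2 again lay between the AD/KO libraries (log2 fold change 0.91, SE 1.17). COX2 (gene ID 17709, 7013 to 7696), which receives electrons from cytochrome c, had 67 and 183 counts in AD and 368 and 388 in AD/KO. The means were 8.06 ± 4.52 and 20.1 ± 1.32 CPM (SD, n = 2 each), and both AD/KO libraries lay above both AD libraries. COX2 had the largest log2 fold change of the mRNAs, 1.32 (SE 0.50, unadjusted p = 0.0476, adjusted p = 0.680 by the edgeR test). With 100% of its windows found in nuclear transcripts, its counts are uncertain. Per length COX2 reached 0.342% and 0.288% of the level of COX1 in AD and 0.617% and 0.303% in AD/KO. COX3 (gene ID 17710, 8607 to 9390) did not follow the other mRNAs. It had 170 and 120 counts in AD and 159 and 325 in AD/KO, so that AD replicate 1 was not its lowest library (log2 fold change 0.40, SE 0.54). Without AD/KO replicate 2 the value for COX3 was −0.24.

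ATP synthase, or complex V, takes ATP6 and ATP8 from mitochondrial DNA. The genes share 43 bases, so that reads there fit both. ATP6 (gene ID 17705, 7927 to 8607), part of the proton channel, had 49 and 156 counts in AD and 207 and 319 in AD/KO. At 3.56 and 9.59 CPM against 10.8 and 17.3 CPM the groups did not overlap, by a narrow margin between AD replicate 2 and AD/KO replicate 1 (log2 fold change 1.09, SE 0.61). ATP8 (gene ID 17706, 7766 to 7969) had 3 and 13 counts in AD and 11 and 20 in AD/KO, and the groups overlapped (0.68, SE 0.89).

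The 7 most counted mRNAs kept similar shares of the mRNA counts while the summed level of the 13 mRNAs ran from 8972 to 40250 CPM. The highest share over the lowest was 1.09 for ND4 to 1.298 for ND5 among these 7, and up to 4.61 for COX3 among the 6 others, none of which exceeded 0.138% of the counts. COX1 took 35.8% and 35.7% of the mRNA counts in AD and 32.9% and 39.0% in AD/KO. CYTB took 14.2% and 14.8% in AD and 17.3% and 14.2% in AD/KO. The share of ND1 was higher in both AD/KO libraries, at 14.1% and 13.4% against 12.2% and 12.3% in AD. ND5 had the lower share in both, at 14.0% and 13.5% against 17.6% and 16.0%, a difference of −3.04 percentage points between the means. ND2 (9.19% to 10.6%), ND4 (7.27% to 7.95%) and ND6 (2.82% to 3.39%) overlapped between the groups. ND3 and ATP6, at most 0.0506% of mRNA counts each, were the other mRNAs without overlap, ND3 lower and ATP6 higher in AD/KO. An exact two-sided permutation test gave p = 0.333 for these 4 of 13, the smallest value that 2 libraries against 2 allow, and 1.0 after Benjamini-Hochberg adjustment over the 13. Of all genes tested, 20.3% lay higher in both AD/KO libraries and 21.7% lower, in CPM rather than as a share. The measures differ, so these percentages are no background for the shares, and whether 4 of 13 is unusual was not tested. Neighbouring genes were also compared per length. ND5 reached 0.779 and 0.680 of the level of CYTB in AD and 0.507 and 0.599 in AD/KO. ND6, which faces the end of ND5 on the other strand, reached 0.659 and 0.696 of the level of ND5 in AD and 0.854 and 0.732 in AD/KO. For both ratios, which share ND5, the groups did not overlap (exact permutation p = 0.333 each). Against CYTB instead, ND6 reached 0.513 and 0.4731 in AD and 0.4333 and 0.4385 in AD/KO, lower in both AD/KO libraries. COX1 stood at 1.875 and 1.791 times the level of CYTB in AD and at 1.413 and 2.034 times in AD/KO, with overlap.

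The rRNAs of the mitochondrial ribosome had another order of libraries than the mRNAs, with AD replicate 2 highest. The libraries were made after depletion of rRNA, and the kit named in the labels is designed to remove mitochondrial as well as cytosolic rRNA, so that these counts are what the depletion left. mt-Rnr2 (gene ID 17725, 1094 to 2675), the rRNA of the large subunit, stood at 4000 and 16139 CPM in AD and at 10856 and 10132 CPM in AD/KO. Both AD/KO libraries lay between the AD libraries (log2 fold change 0.06, SE 1.24). mt-Rnr1 (gene ID 17724, 70 to 1024), the rRNA of the small subunit, was at 217 and 1329 CPM in AD and at 1025 and 698 CPM in AD/KO (0.16, SE 0.92), with the same pattern. Per length, mt-Rnr2 exceeded mt-Rnr1 11.1- and 7.33-fold in AD and 6.39- and 8.77-fold in AD/KO. For each mRNA count there were 0.470 and 0.706 rRNA counts in AD and 0.557 and 0.269 in AD/KO, with overlap (exact permutation p = 0.667). The rRNA share of counts had no steady direction, at −0.0197 percentage points (AD/KO minus AD) on library totals and 0.0513 on the effective library sizes. Rn18s-rs5, a gene annotated over 18S rRNA sequence of the cytosol, took 0.597% and 1.11% of counts in AD and 0.230% and 0.318% in AD/KO. Both AD/KO shares lay below both AD shares (exact permutation p = 0.333), and its part in the mitochondrial rRNA values was not tested.

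The tRNA genes had few counts, from 553 to 2836 per library over all 22. They are shorter than usual RNA-seq fragments, so that reads assigned to them may come from precursors as well as from mature tRNA. The 8 tRNA genes on the strand of ND6 held 428 and 1664 counts in AD and 1237 and 2240 in AD/KO, and the 14 on the other strand held 125 and 321 in AD and 374 and 596 in AD/KO. The first set thus had 3.31 to 5.18 times the counts of the second, and the groups overlapped (exact permutation p = 0.667). TrnD, TrnG, TrnK and TrnR of the second set and TrnS1 of the first lie between genes copied in the chromosome 1 run. Nuclear DNA between the annotated copies was not compared. The part of such copies in the strand contrast was therefore not tested. TrnP and TrnT show the contrast at a single place, since these neighbours of equal length (67 bases each) lie on opposite strands. TrnT directly follows CYTB on the same strand, while TrnP has no gene beside it on its own strand. The part that reads spanning neighbouring genes play in the contrast was not tested, for this pair or for all 22 tRNAs. TrnP (15356 to 15422), for proline, had 145 and 623 counts in AD and 499 and 1015 in AD/KO, and TrnT (15289 to 15355), for threonine, had 1 and 5 in AD and 5 and 5 in AD/KO. Their sequences are given 5′ to 3′ with the anticodon in capitals, beside TrnE, another of the 5 highest tRNAs on the strand of ND6, and TrnM, the tRNA with the largest fold change.
TrnP: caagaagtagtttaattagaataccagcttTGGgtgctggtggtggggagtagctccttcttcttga
TrnT: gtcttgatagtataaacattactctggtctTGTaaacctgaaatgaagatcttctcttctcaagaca
TrnE: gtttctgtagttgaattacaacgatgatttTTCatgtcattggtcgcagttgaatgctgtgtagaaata
TrnM: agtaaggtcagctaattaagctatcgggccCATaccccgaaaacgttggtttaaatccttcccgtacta

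TrnP was the highest tRNA, at 10.5 and 38.3 CPM in AD and 26.0 and 55.1 CPM in AD/KO (log2 fold change 0.73, SE 0.72). TrnE (14071 to 14139), for glutamate, was at 10.3 and 27.8 CPM in AD and at 11.3 and 23.3 CPM in AD/KO. It was the only gene of the 31 with a log2 fold change below 0 (−0.14, SE 0.63), and the sign turned without AD replicate 2 (0.81) or AD/KO replicate 1 (0.35). TrnC for cysteine ran from 3.85 to 13.9 CPM, TrnN for asparagine from 3.34 to 12.97 CPM and TrnA for alanine from 2.32 to 9.497 CPM. These 3 lie side by side on the strand of ND6, between ND2 and COX1. Of them, only TrnA had groups that did not overlap (1.03, SE 0.60). TrnM (3845 to 3913), for methionine, had 13 and 30 counts in AD and 120 and 71 in AD/KO. Its log2 fold change of 1.85 (SE 0.63, unadjusted p = 0.0337, adjusted p = 0.680 by the edgeR test) was the largest of the 31, and TrnM was chosen for naming after its values were seen, as was TrnT. The other 10 tRNAs tested had log2 fold changes from 0.30 (TrnL1) to 1.10 (TrnW). Of the 6 not tested, TrnF and TrnK had 0 counts in every library, which by counting error alone allows up to 0.218 CPM in the shallowest. TrnK, like TrnD and TrnS1, lies between genes copied on chromosome 1. The levels of these tRNAs are uncertain, since reads that match several places may not have been counted. TrnD and TrnS1 had 1 count in all, and TrnV had 0 and 2 counts in AD and 13 and 8 in AD/KO.

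**Figure D4:**
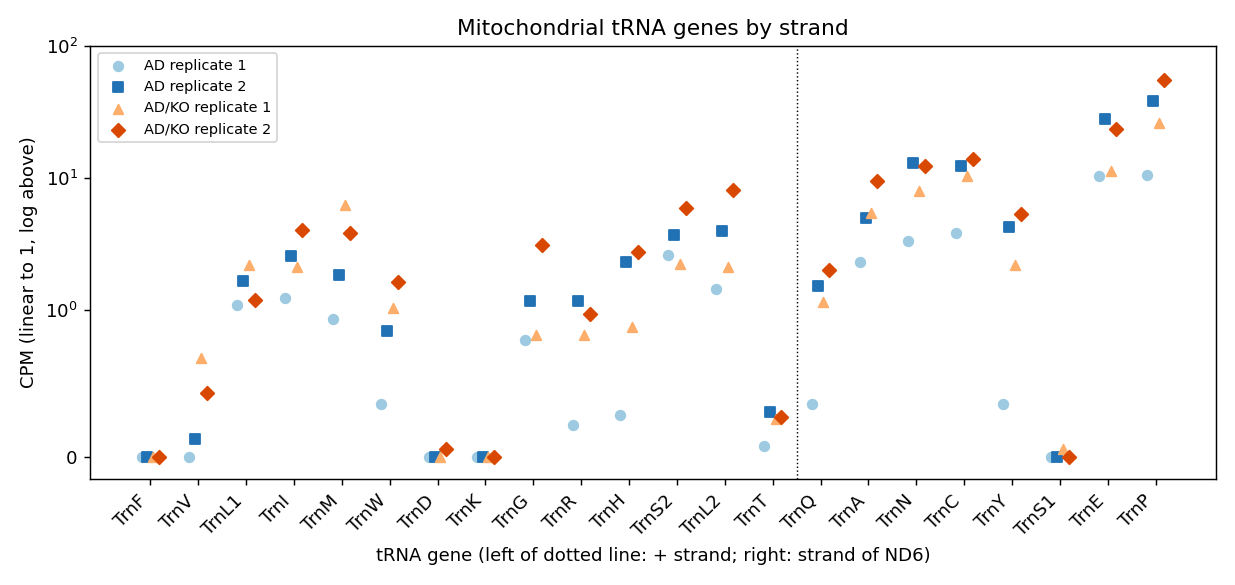
Points give the CPM of each tRNA gene in each library, on an axis that is linear up to 1 CPM and logarithmic above. Left of the dotted line are the 14 genes on the + strand and right of it the 8 on the strand of ND6. TrnP (10.5 to 55.1 CPM) and TrnE (10.3 to 27.8 CPM) stand highest, and TrnF and TrnK are at 0 in all libraries.

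Nuclear genes that serve the same complexes were compared beside the mitochondrial ones. Of 74 nuclear genes for complexes I, III, IV and V, 73 had a log2 fold change above 0, with a median of 0.60, where 47.2% of all genes tested were above 0. They are called nuclear subunits here, although Atpif1, listed in complex V, encodes an inhibitor of ATP synthase. Leaving out AD replicate 1 gave a median of 0.35, and leaving out AD replicate 2 one of 0.94. With AD/KO replicate 2 left out it stood at 0.37. Both AD/KO libraries lay above both AD libraries in 52 of the 74, against 20.3% of all genes, and 0 passed the adjusted threshold in edgeR's quasi-likelihood test (3 had an unadjusted p under 0.05). By complex the medians were 0.52 for 37 genes of complex I, 0.63 for 9 of complex III, 0.86 for 11 of complex IV and 0.59 for 17 of complex V. The member with the smallest p was Ndufb10 in complex I, an accessory subunit, at 13.8 and 14.0 CPM in AD and 26.5 and 27.5 CPM in AD/KO (0.96, SE 0.29). In complex IV it was Cox6a1, at 31.4 and 50.5 CPM against 79.5 and 130 CPM (1.36, SE 0.42). In complex III it was Uqcrq (1.0, SE 0.43) and in complex V Atp5e (0.85, SE 0.37). The summed nuclear subunits reached 1546 and 2149 CPM in AD and 2406 and 3405 CPM in AD/KO. The 13 mitochondrial mRNAs had 5.80 and 11.5 times these counts in AD and 8.86 and 11.8 times in AD/KO, with overlap between the groups (exact permutation p = 0.667).

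Genes that make or handle mitochondrial RNA had fold changes on both sides of 0. Of all genes tested, 47.2% were above 0. Of 17 genes of mitochondrial transcription and genome maintenance, 6 were above 0 and 11 below, with a median of −0.13. Polg2, the accessory subunit of the mitochondrial DNA polymerase, had the smallest p of these (log2 fold change −0.74, SE 0.47). Of 30 genes of mitochondrial RNA processing and decay, 11 were above 0 and 19 below (median −0.10), with Fastk, of a family of mitochondrial RNA regulators, at 0.60 (SE 0.31). The 17 mitochondrial aminoacyl-tRNA synthetases were split 8 above and 9 below 0 (median −0.04), with the valine enzyme Vars2 at 0.84 (SE 0.38). Of 82 genes for mitochondrial ribosomal proteins and their partners, 59 were above 0 (median 0.20), with Mrps26 at 0.83 (SE 0.41). Both AD/KO libraries lay above both AD libraries in 36 of these 82 and below in 7, against 20.3% and 21.7% of all genes tested. The same numbers were 6 and 10 for the RNA processing genes, 1 and 3 for transcription and maintenance, and 2 and 2 for the synthetases. In these 4 lists 0 genes passed the adjusted threshold by edgeR's quasi-likelihood test, and 0 had an unadjusted p under 0.05.

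Of the marker lists of other cell types, only that of neurons had the full library order of the summed mitochondrial mRNAs. Single mRNAs did not all have this order. In ND4L, CYTB, COX2 and ATP6, AD replicate 2 lay below AD/KO replicate 1, which is the order of the astrocyte and oligodendrocyte sums. COX3 had neither order, and the other mRNAs had that of the sum. The summed neuron markers were at 349 and 1199 CPM in AD and at 881 and 2780 CPM in AD/KO, beside mitochondrial mRNA sums of 8972, 24730, 21316 and 40250 CPM. All 10 neuron markers and all 8 astrocyte markers had a log2 fold change above 0, with medians of 1.37 and 1.41. The astrocyte sums were 1866, 4384, 4555 and 11658 CPM in the same library order, and those of 8 oligodendrocyte markers 1641, 2619, 3922 and 8569 CPM. Microglial markers were lowest in AD/KO replicate 2 and had 9 of 10 log2 fold changes below 0 (median −0.42). Across all marker lists, 0 genes were at 0 in every library. Endothelial sums stayed between 46.5 and 69.5 CPM, and erythrocyte sums between 437 and 1993 CPM without a group order. The 6 erythrocyte markers each had a log2 fold change below 0 (median −0.25). Of the 8 oligodendrocyte and the 8 endothelial markers, 6 each were above 0 and 2 below (medians 0.76 and 0.455). All 9 neutrophil markers tested had a log2 fold change below 0 (median −2.24), with the high sum in AD replicate 2 given above. The part of these cell types in the mitochondrial values was not tested, and with 4 libraries their levels and the labels cannot be told apart.

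**Figure D5:**
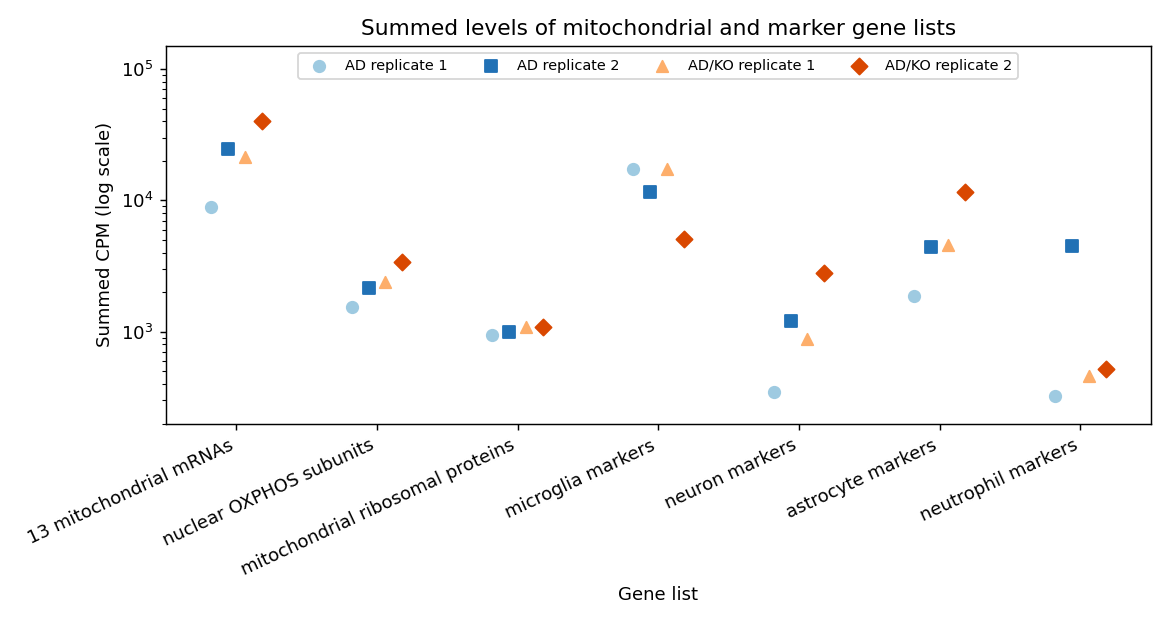
Summed CPM (log axis) of the 13 mitochondrial mRNAs, of nuclear genes for mitochondria and of cell type markers are plotted with 1 point per library. AD replicate 1 is lowest and AD/KO replicate 2 highest for the mitochondrial mRNAs (8972 and 40250 CPM), the nuclear subunits, the neuron and the astrocyte markers, while microglial markers are lowest in AD/KO replicate 2 (5117 CPM).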

How the data were processed

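The authors deposited 1 table of raw read counts per gene symbol for each of 4 libraries. Per the labels' protocols, RNA was extracted with TRIzol, rRNA was depleted with a kit and the libraries were stranded. The submitters' processing notes name HISAT2, featureCounts, DESeq2 1.30.0 and mm10. The use of strand, the treatment of reads that match several places and the annotation are not given in the sources used here. Lines without a count (11 in each library) were left out, none of a mitochondrial gene, and 0 columns lacked a sample.

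Genes were kept by filterByExpr (minimum count 10, minimum total 15), scaled by TMM and tested with edgeR 4.0.16 (quasi-likelihood, all 4 libraries, no covariates, Benjamini-Hochberg over all genes, threshold 0.05). The SE of an edgeR log2 fold change is its absolute value divided by the square root of the quasi-likelihood F statistic. Shares were tested by exact permutation over libraries. Simulated counts with known changes served to test the edgeR script. Coordinates, counted from 1, gene IDs and lengths came from RefSeq for GRCm38.p6, where all 37 symbols matched, and strands and sequences from GENCODE M21, compared with BLAST 2.17.0. Named were all mRNAs and rRNAs, the 5 highest tRNAs with at least 10 counts in each library, Ociad1, and the gene of smallest p in each list of nuclear genes. Alternatives were DESeq2 1.42.0, other scalings and filters, the replicate number as a block and leaving out each library. Members and lists were chosen with earlier results of these data known. No pairing of replicate numbers is given in the labels.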

Additional observations from a re-analysis of the deposited data

How the results depend on the processing

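Across scalings and filters the values for the mitochondrial mRNAs changed little, and leaving out libraries changed them most. The median log2 fold change of the 13 mRNAs was 0.87 to 0.97 under the other scalings, filters and DESeq2, 0.80 over the 6 mRNAs with under 10% of windows copied (an alternative added after the data were seen), and 0.34 to 1.94 with a library left out. The number of genes called was 0, against 91 with DESeq2 and 0 to 524 with a library left out (524 without AD replicate 2, 48 without AD replicate 1), with 0 mitochondrial genes in each of these. The cause was not tested.

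The AD and AD/KO libraries share replicate numbers, which the labels do not tie to a litter or day. Across genes, how far same-numbered libraries lay from their group's mean correlated at 0.68. With 2 libraries per group the deviations mirror each other, and swapping the numbers within a group would only turn the sign. This value therefore cannot show that the numbers mark pairs. The block also takes a further coefficient from the same 4 libraries, which leaves little to measure spread. With the replicate block in the edgeR fit, 4333 genes (20.2% of those tested) and 4 mitochondrial genes were called: COX2 (1.415), ATP6 (1.2), TrnP (0.90) and TrnM (1.84). The median of the mRNAs was then 0.99. Of the 74 nuclear subunits, 30 were called with the block (10 of complex I, 5 of III, 9 of IV and 6 of V), against 0 without it. With a library left out, their medians ran from 0.28 to 0.82 for complex I, 0.41 to 0.87 for III, 0.503 to 1.53 for IV and 0.305 to 0.883 for V.

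With a library left out, differences in share (AD/KO minus AD, in percentage points) ran from −0.286 to 2.65 for the 37 genes, 0.384 to 2.01 for mRNAs, −0.690 to 0.651 for rRNAs and −0.00113 to 0.00711 for tRNAs. On effective library sizes the rRNA difference was 0.0513. Shares of mRNA counts ran from −0.635 to 0.737 for ND2, −0.0986 to 0.583 for ND4, −0.41 to 0.161 for ND6, −0.275 to 2.80 for CYTB and −2.83 to 3.18 for COX1. mRNAs whose share did not overlap numbered 4, against 7 as a share of all 37 genes and 7 to 10 with a library left out, where 3 libraries overlap less often by construction. Log2 fold changes ran from −0.48 to 1.58 for ND3, −0.24 to 0.89 for COX3, −0.63 to 2.06 for mt-Rnr1, −0.63 to 1.46 for mt-Rnr2, −0.74 to 0.81 for TrnE, −0.051 to 1.71 for TrnC and −0.36 to 1.67 for TrnN. Medians ran from −0.25 to 0.055 for RNA processing genes and −0.073 to 0.058 for the synthetases, which stood at 0.035 when scaled without the mitochondrial genes.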
